A study of Homo sapiens with 8 samples.

Results

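Genes that respond to p53 were followed across both stable lines of SHSY5Y, a human neuroblastoma cell line of neural crest origin, before and after differentiation. The members were 9 genes named for this purpose: MDM2, BBC3, BAX, PMAIP1, FAS, GADD45A, SESN1, TP53INP1 and BTG2. A gene was taken from the value table where a row carried its symbol alone, and 8 of the 9 had such a row, 1 each, among the 18377 genes analysed. BTG2 and p53 itself are not analysed here.

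The RNA of 4 groups was hybridised to 8 Affymetrix Human Gene ST arrays, 2 to a group. The lines are called PLKO and V71 after the codes in the sample titles. All 4 groups were kept on laminin. The PLKO NDF and V71 NDF groups were grown in medium with serum (non-differentiation, NDF), and the PLKO DF and V71 DF groups were differentiated with retinoic acid and then with BDNF in serum-free medium (DF). Both lines carry a viral shRNA or control vector and were kept under puromycin, so all 4 groups share the selection, and whether a line is 1 clone is not given in the sources used here. The treatment label assigns an shRNA to PLKO and calls V71 the control, whereas the methods name a pLKO vector as the control. The gene that the shRNA targets is not analysed here and so did not check the labels; every difference between the lines is given as V71 minus PLKO, with no line called control. Of 11 marker genes of noradrenergic neuroblastoma cells, none lay below the lower quartile of its arrays in any group. This bar is low and does not establish the cell type. Of 21 markers of substrate-adherent neuroblastoma cells, at most 3 lay below it in a group. The noradrenergic marker TH had group means of 4.28 to 4.43, below the array medians of 4.596 to 4.677. Levels are RMA values on a log2 scale. To be called, a gene needed a fold of at least 1.5 (0.585 on the log2 scale) and a limma p under 0.05 after Benjamini-Hochberg adjustment over the whole table. The replicates are biological duplicates per the methods, and precision is limited by their number.

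p53 is a transcription factor that is kept scarce in unstressed cells and accumulates upon DNA damage and other stress. Its targets fall into feedback inhibitors such as MDM2, which ubiquitinates p53, killers such as PMAIP1 (NOXA), BBC3 (PUMA), BAX and the death receptor FAS, and genes of arrest, repair and metabolism such as GADD45A, SESN1, TP53INP1 and CDKN1A (p21). Neuroblastoma cells mostly keep p53 intact, and several of these genes also answer to other regulators, such as ATF4, FOXO factors or the cell cycle.

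p53 binds a pair of half-sites of 10 bases, each made of 3 purines, C, a pair of A or T, G and 3 pyrimidines, a pattern that reads the same on both strands. The promoter windows of RefSeq (GRCh38.p14), from 250 bases before to 50 after a start site, were searched for 2 adjacent half-sites with at most 3 letters off. Windows were at hand for 6 of the 8 members; GADD45A and TP53INP1 had none. Such a site was present for 4 of these 6, and for 10 of 44 genes (22.7%) on a list of further p53 targets. Over all genes it was present for 6.39% of 27305 by their best window, and in 5.20% of 35116 windows. For MDM2 it stood in the 2 windows of the downstream start sites, of 4 windows; for FAS and SESN1 it stood in 1 of 3 windows each, and PMAIP1 has a single window. A gene with several windows has more chances of a match, and the members were named as genes that respond to p53, so these shares are no test. A match is a description of letters, and BBC3, BAX and CDKN1A had none in their windows. The sites of these 4 genes are shown because such a pair of half-sites is what p53 binds, with the 20 bases of the site in capitals.
MDM2, chr12:68808918-68808947, plus strand: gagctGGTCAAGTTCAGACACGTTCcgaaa
FAS, chr10:88991304-88991333, plus strand: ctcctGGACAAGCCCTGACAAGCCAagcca
SESN1, chr6:109009013-109009042, minus strand: cgtctGGACAAGTCTCCACAAGTCAgaaat
PMAIP1, chr18:59899806-59899835, plus strand: gtcggGAGCGTGTCCGGGCAGGTCGcgctc
The MDM2 and FAS sites were 2 letters off, and those of SESN1 and PMAIP1 were 3 letters off. In SESN1 and FAS the first half-site had no letter off. The site of PMAIP1 begins 185 bases upstream of its start, that of FAS 122, that of SESN1 49, and that of MDM2 94 or 101 bases upstream of these 2 downstream starts.

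Among the 8 target genes, PMAIP1 was called lower upon differentiation in both lines, and both calls ended without moderation of the variance. At 1 of 8 members in each line, this is near the background given below. GADD45A was lower in the V71 line in NDF, a call that ended when single arrays were left out. The other 6 genes were called in no comparison; SESN1 and TP53INP1 each had 1 difference with an adjusted p under 0.05 and a fold below 1.5.

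**Figure D1:**
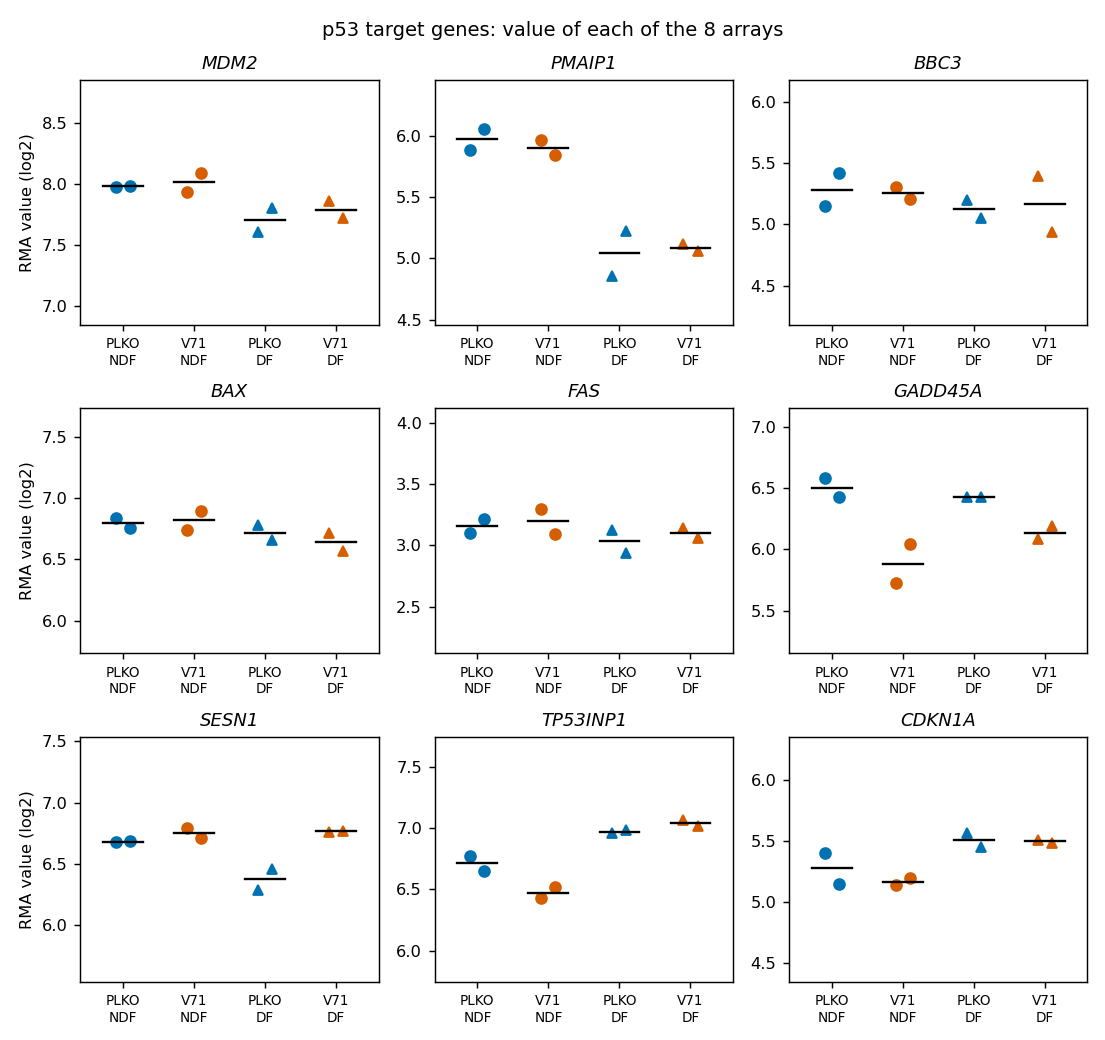
RMA value (log2) of each of the 8 arrays for the 8 target genes and CDKN1A, with circles for NDF and triangles for DF, blue for PLKO and orange for V71, and black bars at the means of 2 arrays; every panel spans the same 2 log2 units. PMAIP1 lies between 5.84 and 6.06 in NDF and between 4.86 and 5.23 in DF, and GADD45A is lowest in V71 NDF.

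PMAIP1 encodes a short BH3-only protein that neutralizes MCL1 and so opens the way to mitochondrial cell death. It read 5.89 and 6.06 in PLKO NDF, 5.96 and 5.84 in V71 NDF, 4.86 and 5.23 in PLKO DF, and 5.12 and 5.06 in V71 DF. All 4 NDF arrays were above all 4 DF arrays, and the lines overlapped within each medium. The DF minus NDF difference was -0.93 in PLKO (standard error 0.12, adjusted p = 0.000949 in limma) and -0.81 in V71 (standard error 0.12, adjusted p = 0.00207), 1.90-fold and 1.76-fold lower values. In PLKO, 7.04% of all genes were called (2.88% higher, 4.16% lower), and in V71 7.53% (3.98% higher, 3.55% lower), so 1 of 8 members in each line is near the background. The change did not differ detectably between the lines, with an interaction of 0.11 (95% interval -0.28 to 0.51, adjusted p = 0.923). Both calls held with each array left out in turn, and both ended without moderation of the variance (adjusted p = 0.0545 and 0.0693).

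A stretch of the PMAIP1 promoter is printed because this is the member that fell; it covers the 250 bases before the start, with the site described above in capitals.
PMAIP1, GRCh38.p14, chr18:59899746-59899995, plus strand: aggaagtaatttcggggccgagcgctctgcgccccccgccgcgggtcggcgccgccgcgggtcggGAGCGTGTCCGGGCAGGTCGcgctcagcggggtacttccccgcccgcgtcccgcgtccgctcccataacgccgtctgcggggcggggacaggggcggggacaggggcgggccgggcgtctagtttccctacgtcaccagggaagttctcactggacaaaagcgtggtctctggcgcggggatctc

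Of the 979 genes whose group means range over at least 1 log2 unit, the histone gene H3C1 (Pearson r = 0.992 over the 8 arrays) was most like PMAIP1. Upon differentiation H3C1 changed by -2.07 in PLKO and -1.61 in V71 on the log2 scale. This correlation describes 8 arrays in 4 groups that share the NDF and DF difference. A list of 20 cell cycle genes, which includes mitotic kinases and MCM helicase subunits, moved the same way: 20 of 20 were called lower in PLKO and 18 of 20 in V71, where all 20 had a negative difference with an adjusted p under 0.05 in limma. Its mean log2 value was 7.61 to 7.63 on the PLKO NDF arrays and 5.82 to 5.92 on the PLKO DF arrays, and 7.78 to 7.79 and 6.42 to 6.49 in V71. Between the lines in DF, 10 of these 20 genes were called higher in V71 and none lower, beside 1.81% and 1.26% of all genes. The part of the cell cycle shift upon differentiation in the fall of PMAIP1 was not tested. In a bulk sample, fewer cells of a type and less RNA per cell cannot be told apart.

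BBC3, the BH3-only protein that binds all antiapoptotic BCL2 proteins, was called in no comparison. Its values were 5.15 and 5.42 in PLKO NDF, 5.31 and 5.21 in V71 NDF, 5.20 and 5.05 in PLKO DF, and 5.40 and 4.94 in V71 DF. The groups overlapped in all comparisons, and the V71 DF arrays alone spanned most of the range. BBC3 had the widest intervals of the 8 genes. Its DF minus NDF difference was -0.16 in PLKO (95% interval -0.50 to 0.18) and -0.09 in V71 (-0.43 to 0.25).

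BAX, the pore-forming protein of the mitochondrial outer membrane, stayed within 6.57 and 6.90 over all 8 arrays. Its V71 minus PLKO difference was 0.02 in NDF (95% interval -0.20 to 0.24) and -0.07 in DF (-0.29 to 0.15). Upon differentiation the difference was -0.08 in PLKO (-0.30 to 0.14) and -0.17 in V71 (-0.39 to 0.05). For BAX all of these intervals lie inside the 1.5-fold threshold. PMAIP1, BBC3 and BAX are also members of the BCL2 family.

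FAS, the cell surface death receptor, was dim. It read 2.94 to 3.30 on the 8 arrays, whose lower quartiles lie between 3.002 and 3.063, and its mean in PLKO DF was below that quartile. Its differences between groups ran from -0.12 to 0.06, and a change of a transcript near background would not be detectable here.

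MDM2, the ubiquitin ligase and feedback inhibitor of p53, read 7.98 and 7.99 in PLKO NDF, 7.93 and 8.09 in V71 NDF, 7.61 and 7.80 in PLKO DF, and 7.86 and 7.72 in V71 DF. All NDF arrays were above all DF arrays, by a small margin. Within a line, a fall without overlap was found in 25.9% of all genes in PLKO and 27.3% in V71. The DF minus NDF difference was -0.28 in PLKO (95% interval -0.50 to -0.05, adjusted p = 0.121) and -0.22 in V71 (95% interval -0.45 to 0.00, adjusted p = 0.217), and neither passed. Between the lines MDM2 differed by 0.03 in NDF (-0.20 to 0.26) and 0.08 in DF (-0.14 to 0.31), intervals that lie inside the 1.5-fold threshold. Its relative MDM4, which masks the activation domain of p53, gave differences of 0.04 in NDF and -0.03 in DF between the lines, and 0.02 and -0.05 upon differentiation in PLKO and V71. TP73, a homologue of p53, gave 0.18 in NDF and 0.18 in DF between the lines and -0.15 and -0.16 upon differentiation, and was not called.

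GADD45A, a stress protein of growth arrest and DNA repair, was lower in the V71 line in NDF. It read 6.58 and 6.42 in PLKO NDF, 5.72 and 6.04 in V71 NDF, 6.43 and 6.43 in PLKO DF, and 6.08 and 6.19 in V71 DF. Every V71 array was below every PLKO array. The V71 minus PLKO difference was -0.62 in NDF (standard error 0.11, adjusted p = 0.0214 in limma), a 1.54-fold lower value, just past the threshold. In NDF 2.15% of all genes were called (1.54% lower), beside 1 of the 8 target genes. In DF the difference was -0.29 (95% interval -0.55 to -0.04, adjusted p = 0.225), and the interaction was 0.33 (95% interval -0.04 to 0.69, adjusted p = 0.612), so a difference between the media was not shown. The call ended without PLKO NDF replicate 2 (-0.54, adjusted p = 0.205), without PLKO NDF replicate 3 (-0.70, adjusted p = 0.0828) and without V71 NDF replicate 2 (-0.46, adjusted p = 0.123). It also ended without moderation (adjusted p = 0.225) and in a fit of the 4 NDF arrays alone (adjusted p = 0.0691).

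Some markers of substrate-adherent (S-type) neuroblastoma cells, which such cultures could hold, also differed in this comparison. Of 21 S-type markers, 7 were lower in V71 in NDF (VIM, FN1, ANXA2, SNAI2, EGFR, PDGFRA and TNC) and 1 was higher (TIMP1). Of all genes, 1.54% were lower and 0.615% higher. The list was chosen with earlier results of these data known, so its counts beside those shares are no test. Over the 21 markers the median difference was -0.09, with 13 negative and 8 positive. Their mean log2 value was 5.21 to 5.25 on the PLKO NDF arrays and 4.71 to 4.80 on the V71 NDF arrays, and 3 and 1 of them lay below the lower quartile. In DF 3 were lower (EGFR, PDGFRA and TNC) and none was higher, beside 1.26% and 1.81% of all genes. The DF mean was 4.91 to 4.93 in PLKO and 4.57 to 4.71 in V71. The median difference in DF was -0.01, with 11 negative and 10 positive. The part of these markers in the GADD45A difference was not tested. The genes most like GADD45A over the 8 arrays were the plexin PLXNA2 (Pearson r = 0.941) and the integrin subunit ITGA2 (r = 0.924). The V71 minus PLKO difference of PLXNA2 was -1.44 in NDF and -0.96 in DF, and that of ITGA2 was -1.03 in NDF and -0.37 in DF.

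SESN1, a sestrin that restrains mTORC1 and protects from oxidants, read 6.68 and 6.68 in PLKO NDF, 6.79 and 6.72 in V71 NDF, 6.29 and 6.46 in PLKO DF, and 6.76 and 6.77 in V71 DF. Both PLKO DF arrays were the lowest of the 8. In DF the V71 minus PLKO difference was 0.39 (standard error 0.09, adjusted p = 0.0370 in limma), a fold of 1.31 that is short of the threshold. With 1 array left out, the adjusted p stayed under 0.05 only without PLKO DF replicate 2 (0.0359), and it was between 0.0535 and 0.182 without each of the others. At that adjusted p and any fold, 6.51% of all genes differed in DF (3.75% higher in V71); with the fold of 1.5, 3.06% did (1.81% higher, 1.26% lower) and none of the 8 members. At an unadjusted p under 0.05 in limma there were 2 of the 8 members in DF, SESN1 and GADD45A, beside 3576 of 18377 genes. Without moderation no member was called in DF. The DF minus NDF difference of SESN1 was -0.31 in PLKO (95% interval -0.51 to -0.11, adjusted p = 0.0534) and 0.01 in V71 (-0.19 to 0.21).

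TP53INP1, a nuclear and autophagy protein that promotes p53 phosphorylation, read 6.77 and 6.65 in PLKO NDF, 6.43 and 6.52 in V71 NDF, 6.96 and 6.98 in PLKO DF, and 7.06 and 7.01 in V71 DF. The DF arrays were the 4 highest, and V71 NDF was the lowest group. The DF minus NDF difference was 0.57 in V71 (standard error 0.09, adjusted p = 0.00190 in limma), a fold of 1.48, just outside the threshold of 1.5, and 0.26 in PLKO (adjusted p = 0.0853). At any fold 16.5% of all genes had an adjusted p under 0.05 in V71 (9.29% higher). The fold reached 1.5 without V71 NDF replicate 3 (0.61 on the log2 scale, adjusted p = 0.00866) and without V71 DF replicate 2 (0.59, adjusted p = 0.0117). Between the lines TP53INP1 differed by -0.24 in NDF (adjusted p = 0.256) and 0.07 in DF (adjusted p = 0.781). Most like it over the 8 arrays were SLC18A1, the vesicular monoamine transporter of chromaffin cells (r = 0.986), and ACSS2, which makes acetyl-CoA from acetate (r = 0.985). Both rose upon differentiation, SLC18A1 by 0.66 in PLKO and 1.22 in V71 and ACSS2 by 0.64 and 1.33.

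CDKN1A encodes p21, the CDK inhibitor through which p53 arrests the cell cycle. It read 5.40 and 5.15 in PLKO NDF, 5.14 and 5.19 in V71 NDF, 5.56 and 5.45 in PLKO DF, and 5.51 and 5.48 in V71 DF. All DF arrays were above all NDF arrays. Within a line, a rise without overlap was found in 29.2% of all genes in PLKO and 27.7% in V71. The DF minus NDF difference was 0.23 in PLKO (adjusted p = 0.212) and 0.33 in V71 (95% interval 0.10 to 0.56, adjusted p = 0.0648), and neither passed. Between the lines it differed by -0.11 in NDF (-0.34 to 0.12) and -0.01 in DF (-0.23 to 0.22).

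**Figure D2:**
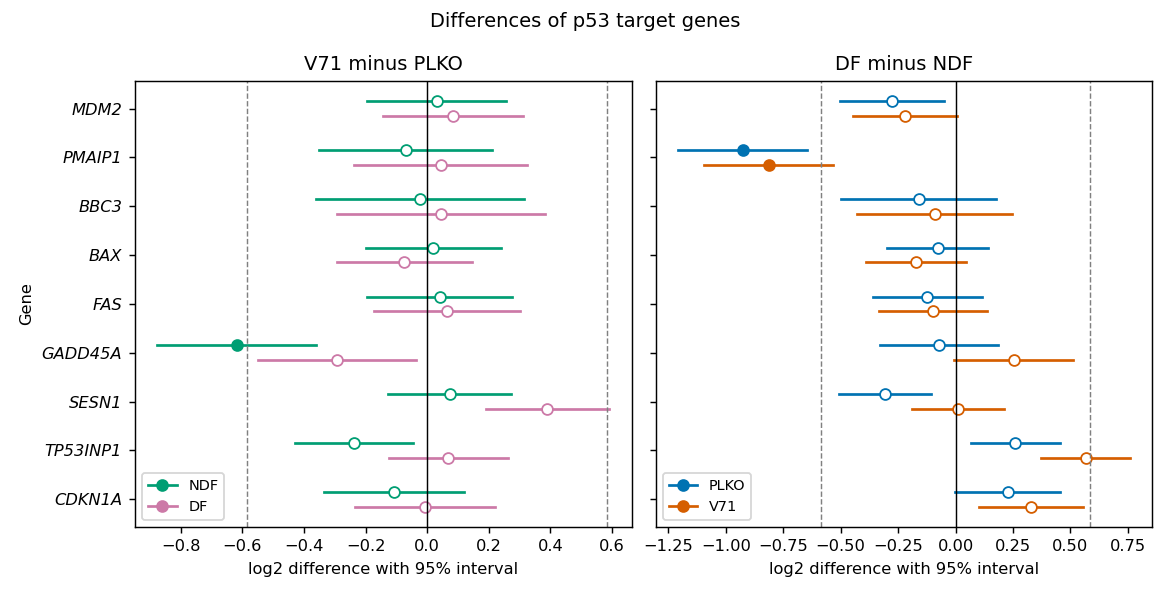
Log2 differences of the 8 target genes and CDKN1A, V71 minus PLKO on the left (green NDF, pink DF) and DF minus NDF on the right (blue PLKO, orange V71), with 95% intervals from limma; filled points passed the test and dashed lines mark a fold of 1.5. PMAIP1 passes upon differentiation in both lines and GADD45A between the lines in NDF.

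Over the 8 members the median V71 minus PLKO difference was -0.00 in NDF and 0.05 in DF, beside 0.01 and 0.01 over all genes. The median DF minus NDF difference was -0.14 in PLKO and -0.09 in V71, beside 0.01 and -0.00 over all genes. The comparisons share arrays, since each group enters both a line and a differentiation comparison. No member passed the interaction, in which 1.39% of all genes were called (1.09% with a more positive change upon differentiation in V71 than in PLKO). At an unadjusted p under 0.05 in limma the interaction held 2 of the 8 members, beside 1873 of 18377 genes. They were SESN1 at 0.32 and TP53INP1 at 0.31 (adjusted p = 0.460 and 0.459 in limma), and without moderation no member was called.

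A separation of the 2 arrays of a group from the 2 arrays of another was common in the whole table and is read here only beside that background. Orderings over all 8 arrays, as given above for single genes, were not counted over all genes and are descriptions only. Between the lines in NDF, 3 of the 8 members were separate (SESN1 higher in V71, GADD45A and TP53INP1 lower), beside 47.5% of all genes. In DF 2 were separate and higher in V71 (SESN1 and TP53INP1), beside 24.6% of all genes, and GADD45A was separate and lower, beside 21.1% (45.7% in either direction). Upon differentiation in PLKO 4 were separate (TP53INP1 higher, MDM2, PMAIP1 and SESN1 lower), beside 55.1% of all genes. In V71 2 were higher (TP53INP1 and GADD45A) and 3 lower (MDM2, PMAIP1 and BAX), beside 27.7% and 27.3% of all genes, or 55% in either direction. With the adjusted p alone, at any fold, 1 of 8 members differed in NDF beside 3.41% of all genes, and 1 of 8 in PLKO beside 15.8%.

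The wider pathway was taken from lists set from general knowledge. Of 57 further p53 targets 53 were analysed. In NDF 3 of them passed as lower in V71 and 0 as higher, and in DF 1 was higher and none lower. Upon differentiation 1 was higher and 3 lower in PLKO, and 3 were higher and 2 lower in V71. The called share was 5.66% in NDF and 1.89% in DF, beside 2.15% and 3.06% of all genes, and 7.55% in PLKO and 9.43% in V71, beside 7.04% and 7.53%. The median difference of the list was -0.02 in NDF, 0.07 in DF, -0.04 in PLKO and 0.01 in V71.

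PLK2, a polo-like kinase that p53 induces and that neurons use at active synapses, moved by far the most in this list. It read 4.50 and 4.45 in PLKO NDF, 3.65 and 3.72 in V71 NDF, 6.81 and 6.94 in PLKO DF, and 7.68 and 7.47 in V71 DF. It rose upon differentiation by 2.40 in PLKO (standard error 0.10, adjusted p = 9.34e-07 in limma) and by 3.89 in V71 (standard error 0.10, adjusted p = 4.06e-08), 5.27-fold and 14.9-fold. V71 was below PLKO in NDF, at -0.79 (adjusted p = 0.00224), and above it in DF, at 0.70 (adjusted p = 0.00339). The interaction was 1.49 (standard error 0.14, adjusted p = 0.000886). Both line differences and the interaction ended without moderation (adjusted p = 0.0920, 0.0826 and 0.119).

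PCNA, the sliding clamp of DNA polymerases, changed by -1.01 in PLKO and -0.71 in V71 (adjusted p = 0.000164 and 0.00158). POLH, the polymerase that copies past UV damage, changed by -0.73 and -0.64 (adjusted p = 0.000745 and 0.00178). In DF PCNA was higher in V71 than in PLKO by 0.49 (adjusted p = 0.0272 in limma), a fold below 1.5. DDIT4, an inhibitor of mTORC1, fell by 0.73 in PLKO (adjusted p = 0.00365); without moderation the call ended (adjusted p = 0.0824), and without PLKO DF replicate 1 its difference was -0.56, below the fold. The V71 mean of DDIT4 was 5.26 in NDF and 4.90 in DF, not called. CYFIP2, a subunit of the WAVE complex of actin assembly, and ANKRA2 were higher in V71 DF than in V71 NDF, by 0.73 and 0.66 (adjusted p = 0.000540 and 0.00497). In PLKO CYFIP2 also rose, by 0.47 (adjusted p = 0.00719 in limma), a fold below 1.5. The PLKO mean of ANKRA2 was 4.67 in NDF and 5.07 in DF, not called. Of the further targets, only PLK2 had a called interaction. The call of ANKRA2 ended without moderation (adjusted p = 0.0865) and fell short of the fold without V71 DF replicate 2 (0.58).

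Between the lines in NDF, the lower targets beside PLK2 were TNFRSF10B, the TRAIL death receptor, at -0.60 (adjusted p = 0.00847), and IGFBP3, which binds insulin-like growth factors, at -0.65 (adjusted p = 0.0186). TNFRSF10B read 7.99 and 7.81 in PLKO NDF against 7.24 and 7.37 in V71 NDF. In DF the difference of TNFRSF10B was -0.50 (adjusted p = 0.0142, a fold below 1.5) and that of IGFBP3 was -0.43 (adjusted p = 0.0737), and neither interaction passed (0.09 and 0.22, adjusted p = 0.916 and 0.790). The TNFRSF10B call ended when PLKO NDF replicate 2 (-0.51) or the same-numbered V71 NDF array (-0.53) was left out, and without moderation (adjusted p = 0.115). The IGFBP3 call ended without PLKO NDF replicate 2 (-0.49), V71 NDF replicate 2 (-0.62) or V71 NDF replicate 3 (-0.68), and without moderation (adjusted p = 0.220).

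**Figure D3:**
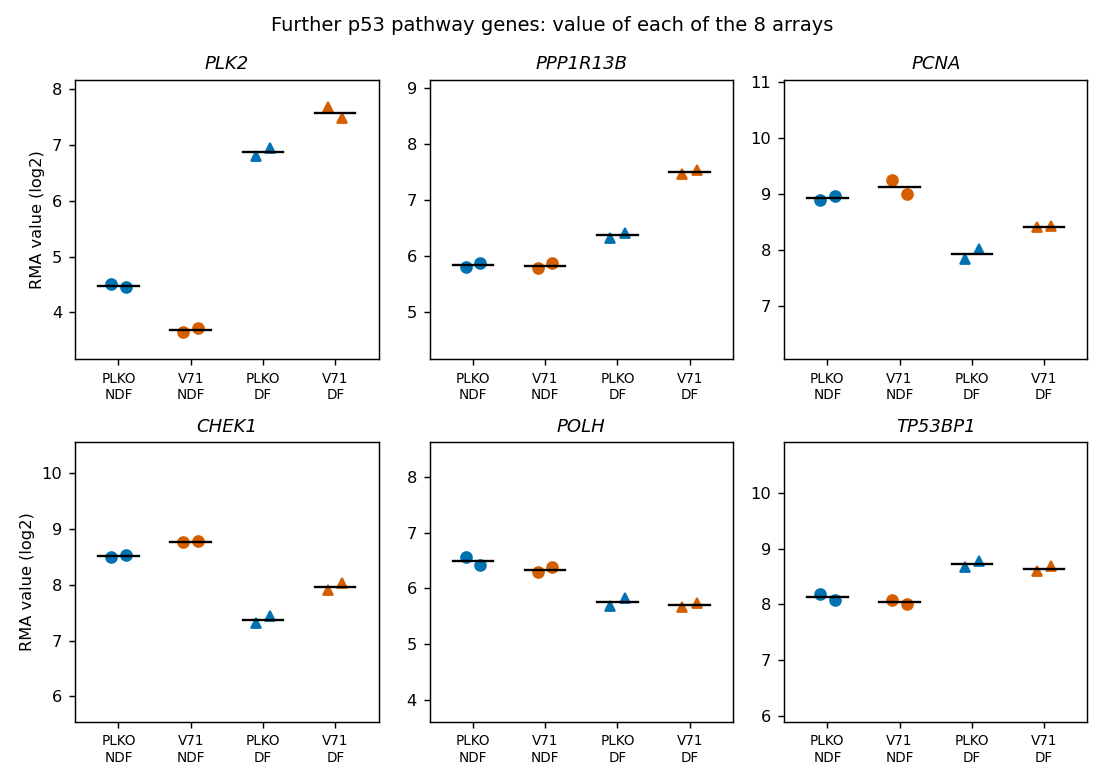
RMA value (log2) of each of the 8 arrays for 6 further genes of the p53 pathway, drawn as in the plot of the target genes, with every panel spanning 5 log2 units. PLK2 rises from 3.65 to 4.50 in NDF to 6.81 to 7.68 in DF, and PPP1R13B is highest in V71 DF.

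Of 29 regulators of p53, 26 were analysed. None was called between the lines in NDF, and in DF 2 were higher in V71. CHEK1 just missed the fold in DF, at 0.58 higher in V71 (adjusted p = 0.00482 in limma). With median centring it was called, at 0.60. In NDF 7 of the regulators had an unadjusted p under 0.05 in limma, beside 2765 of 18377 genes. The largest NDF difference was 0.40 in size, short of the fold, so none was called without moderation either. Upon differentiation 1 was higher and 2 lower in PLKO, and 2 were higher and 2 lower in V71. These are 7.69% of the list in DF, 11.5% in PLKO and 15.4% in V71, beside 3.06%, 7.04% and 7.53% of all genes. PPP1R13B (ASPP1), which steers p53 to promoters of death genes, read 5.80 and 5.87 in PLKO NDF, 5.77 and 5.87 in V71 NDF, 6.32 and 6.41 in PLKO DF, and 7.47 and 7.53 in V71 DF. It rose by 1.68 upon differentiation in V71 (standard error 0.09, adjusted p = 2.89e-06 in limma), while the difference in PLKO was 0.53 (adjusted p = 0.00320), a fold of less than 1.5. In DF it was higher in V71 than in PLKO by 1.13 (adjusted p = 9.21e-05), and the interaction was 1.15 (standard error 0.12, adjusted p = 0.00206; without moderation 0.0922).

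Of the checkpoint kinases that phosphorylate p53, CHEK1 changed upon differentiation by -1.14 in PLKO and -0.81 in V71 (adjusted p = 2.58e-05 and 0.000261), and CHEK2 fell by 0.67 in PLKO (adjusted p = 0.0156) and was not called in V71 (-0.47, adjusted p = 0.0727). ATM and ATR were not called, at 0.16 and 0.11 in PLKO and 0.25 and 0.22 in V71. TP53BP1, a scaffold at broken DNA, was higher by 0.60 and 0.59 (adjusted p = 0.00164 and 0.00173), barely past the threshold. ZNF385A, a cofactor of p53, was lower upon differentiation in V71, at -0.64 (adjusted p = 0.0385). Its mean in PLKO was 5.41 in NDF and 4.97 in DF, not called. SETD7, a lysine methyltransferase of p53, was higher by 0.61 in V71 DF than in PLKO DF (adjusted p = 0.0110). In NDF the mean of SETD7 was 7.12 in PLKO and 7.52 in V71, not called. Of the regulators, only PPP1R13B had a called interaction. The calls of CHEK2, ZNF385A and SETD7 ended without moderation (adjusted p = 0.165, 0.246 and 0.139). CHEK2 was not called with either PLKO NDF array left out (-0.62 without replicate 2, -0.72 without replicate 3) or without PLKO DF replicate 1 (-0.45). Without PLKO DF replicate 1 or V71 DF replicate 2 that of SETD7 was 0.60 and 0.46, not called. The call of ZNF385A held in 2 of the 8 fits that leave out an array, and that of TP53BP1 fell short of the fold without PLKO NDF replicate 3 or PLKO DF replicate 2 in PLKO (0.55 and 0.54) and without V71 NDF replicate 3 or V71 DF replicate 2 in V71 (0.56 and 0.55).

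**Figure D4:**
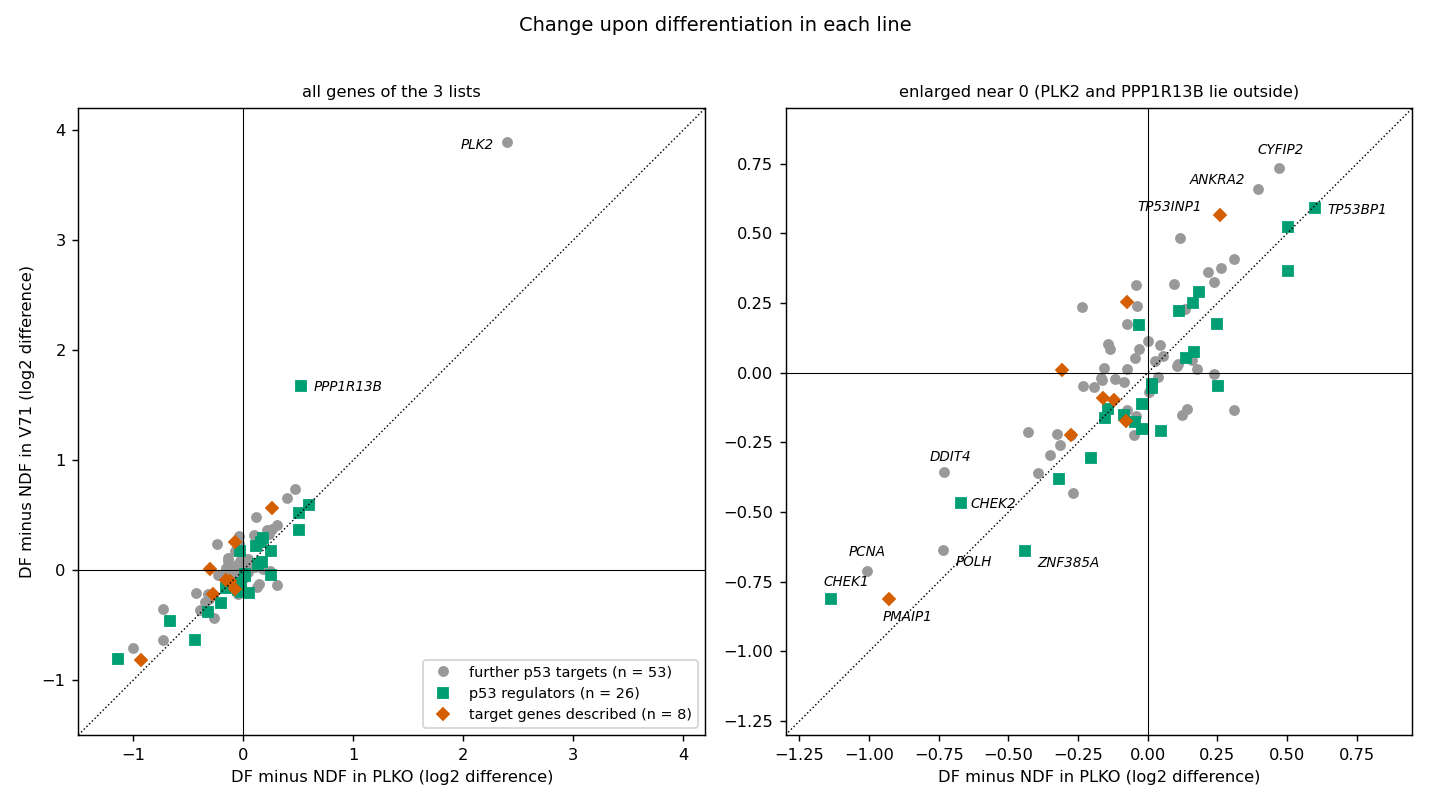
DF minus NDF difference (log2) in PLKO on the x axis and in V71 on the y axis, 1 point per gene, for the 8 target genes, 53 further targets and 26 regulators; the dotted line marks equal change, and the right panel enlarges the region near 0. Most points lie within 0.5 of 0 on both axes, and PLK2 and PPP1R13B lie farthest above the line.

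ATF4 drives an amino acid stress response that shares several genes with p53. Of 15 ATF4 targets 2 were lower upon differentiation in PLKO and 3 in V71 (13.3% and 20% of the list, beside 4.16% and 3.55% of all genes), and none was higher. Between the lines VLDLR, a receptor of reelin and lipoproteins, was the 1 called gene of this list, higher in V71 by 1.27 in NDF and 0.88 in DF.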

How the data were processed

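The deposited values are log2 intensities that the authors summarized by the robust multi-array average (RMA) in Partek Genomics Suite 6.5 from Human Gene 1.0 ST arrays; quantile normalization across arrays, a usual step of RMA, limits differences in overall level. No scanner files were used here. Rows were named through the platform annotation: 19310 of 28869 rows carried 1 symbol, 1752 several and 7807 none, and the row with the highest mean stood for each of 18377 genes. limma 3.58.1 (R 4.3.3) was fitted to all rows with 4 group means and moderated variances (residual df 4, prior df 5.43), with Benjamini-Hochberg adjustment over all rows. The lines were compared in either medium (V71 minus PLKO), the media in either line (DF minus NDF), and the interaction was taken from the same fit. The fit was tested on simulated data for V71 minus PLKO in NDF over 28869 rows: it called 28 of 50 changed genes at a fold of 1.5 and 50 of 50 at a fold of 2. The simulated fold of 1.5 equals the fold asked of a call, so 28 of 50 does not measure sensitivity there. The simulated noise was normal, and no change upon differentiation was simulated. Spearman correlations of arrays were at least 0.9947 within groups.

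The members and lists (further p53 targets, p53 regulators, ATF4 targets, cell cycle genes, S-type and noradrenergic markers) were chosen with earlier results of these data known. Genes named were all members, p53 and p21, the relatives MDM4, TP63 and TP73 (TP63 is not analysed here), up to 4 called targets and regulators of the largest change per comparison, and the 2 genes most correlated with each of the 3 members of widest range (1 of these is not reported here); VLDLR, ATM and ATR were named after their values were seen. Of 11 noradrenergic markers, 2 were higher (CHGA and CHGB) and none lower in V71 in NDF, beside 0.615% and 1.54% of all genes. In DF 1 was higher (CHGB) and 1 lower (DBH), beside 1.81% and 1.26%. Upon differentiation 1 was higher and 1 lower in PLKO, beside 2.88% and 4.16%. In V71 1 was higher and 3 lower, beside 3.98% and 3.55%. Alternatives covered moderation, prior, normalization, a filter on dim rows, the adjustment, the fold threshold, the row per gene, the arrays fitted, a block on replicate number and leaving out single arrays. The crossed replicate block was chosen after seeing the data.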

Additional observations from a re-analysis of the deposited data

Results flagged for a closer look

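The change of PLK2 upon differentiation differed between the lines, with an interaction of 1.49 on the log2 scale (adjusted p = 0.000886 in limma); DF was above NDF in both lines. The change of PPP1R13B differed likewise, with an interaction of 1.15 (adjusted p = 0.00206 in limma); V71 DF was above all other groups.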

How the results depend on the processing

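Of the 2370 recomputed differences of single genes, 2294 kept their side of the threshold, 61 lost the call and 15 gained one. Among the 2294, 63 that were called in neither fit changed sign, the largest of size 0.192, and the others kept their direction. Without moderation, called members went from 1 to 0 in NDF, PLKO and V71, called further targets to 0 in NDF, 0 in DF and 0 in the interaction, and called genes to 99 in NDF, 166 in DF and 3 in the interaction. With a fold of at least 2, members were 0 in NDF, PLKO and V71, further targets 0 in NDF, 0 in DF, 2 in PLKO and 1 in V71, and genes 133 in NDF, 152 in DF, 525 in PLKO, 486 in V71 and 133 in the interaction. With no fold threshold, members were 1 in DF and 2 in V71, further targets 5 in DF, 9 in PLKO and 9 in V71, and genes 627, 1197, 2895 and 3034. In a fit of the 4 NDF arrays alone, called members in NDF were 0. With each array left out, members ranged from 0 to 1 in NDF and 1 to 2 in V71, further targets from 1 to 3 in NDF and 1 to 2 in DF, and genes in the interaction from 120 to 230. The cause of these shifts was not tested, beyond the smaller or larger fold asked for. The number of arrays limits what could be called.

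V71 and PLKO share replicate numbers within each medium, which no label ties to a day or culture; deviations of same-numbered arrays correlated at -0.176 in NDF and 0.188 in DF. With the replicate block, called members in NDF were 0 (GADD45A, adjusted p = 0.0527), and called genes were 388 in NDF, 564 in DF and 190 in the interaction. With the numbers crossed in NDF, 1 member and 394 genes were called.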
